A study of Mus musculus with 20 samples.

Results

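The transcriptome of mouse embryonic fibroblasts (MEFs) that carry the dCas9a-SAM cassette and have received no guide RNA was compared with that of WT MEFs. The comparison takes 4 of the 20 libraries of the series, namely the 2 dCas9a-SAM libraries without a guide, labelled *dCas9-SAM*, and the 2 WT libraries. Both groups were untreated fibroblasts grown in DMEM with 10% FBS, and all libraries were made by the same RNA-seq protocol. The study's methods describe MEF lines from E14 embryos on a C57BL/6 background, with 1 cassette copy (KI/+) in the dCas9a-SAM lines, whereas the sample labels give the genotype without a copy number. The cassette sits in the *Rosa26* locus, is driven by the CAG promoter and had its loxP-flanked stop removed by a CRE deleter strain. The promoter is a broadly active one, so that expression is not limited to 1 cell type. Each group is 2 MEF lines according to the labels, so that p-values measure the spread between 2 cultures only. Neither the passage of the lines nor the parents of the WT embryos is given in the sources used here. The 2 dCas9a-SAM libraries with a non-targeting guide (sgNT) are given beside some results, as cells with the same cassette that took no part in the comparison.

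CRISPR activation uses a Cas9 that binds DNA but does not cut it. In the SAM form, dCas9 is fused to the VP64 activator, and the guide RNA carries hairpins that recruit the MS2 coat protein joined to the activation domains of p65, an NF-κB subunit, and of HSF1, the main heat shock factor. Without a guide, the complex has no target sequence, and the comparison asks what the cassette alone goes along with in the transcriptome. MEF cultures are mixed: they are mostly fibroblasts, but start from whole embryo bodies and can hold muscle, cartilage, neural crest, epithelial or blood-derived cells. Fibroblasts also differ by the body region they came from, which their Hox genes record, and their growth slows with passage as the *Cdkn2a* locus is induced.

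The depth of the 4 libraries ran from 18854501 to 26319819 reads assigned to genes. All 4 were positive for Y-linked genes (175.5 to 223 CPM summed over 4 genes, where CPM is the read count scaled to a common library total) and held at most 0.345 CPM of *Xist*. The guide-carrying libraries labelled as MEF line 2 were of the opposite kind, with at most 0.207 CPM of the same Y-linked genes. The dCas9a-SAM library labelled line 2 thus did not match the other libraries labelled line 2, and line numbers were not used to pair samples. Whether the 2 dCas9a-SAM libraries come from 2 embryos or are 2 cultures of 1 embryo was not tested. Fibroblast markers were present in every library: 12 of 12 passed the filter on low counts, and their sum, carried by abundant genes such as *Fn1* and *Col1a1*, was 19093 and 9907.8 CPM in WT MEF 1 and 2 and 21525 and 18929 CPM in dCas9a-SAM MEF 1 and 2. WT MEF 2 was the lowest of the 4 in sum. Gene by gene, however, 5 of the 12 (*Dcn*, *Lum*, *Pdgfra*, *Pdgfrb* and *Postn*) were below both WT libraries in dCas9a-SAM MEFs (20.5% of all genes tested). Another 2 were above both (20.7% of all genes tested).

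The WT libraries differed far more from each other than the dCas9a-SAM libraries did. Of 13911 genes tested, none of them on X or Y, 4291 (30.8%) were at least 2-fold apart between WT MEF 1 and WT MEF 2, and 184 (1.32%) between dCas9a-SAM MEF 1 and 2. The median SD of a pair on the log2 scale was 0.441 for WT and 0.0783 for dCas9a-SAM. The dCas9a-SAM pair still differed by more than the counting of reads gives, with a chi-square of 7.56 per gene. The value was 11.7 for the sgNT pair and 327 for the WT pair. The dCas9a-SAM pair was kept as 2 samples, but cultures of the same line can also exceed counting noise, so the value does not show separate lines. Where the WT libraries lay 2-fold or more apart, the dCas9a-SAM mean was nearer to WT MEF 1 for 3249 genes (75.7%) and nearer to WT MEF 2 for 1042. The dCas9a-SAM mean was at least 2-fold from WT MEF 1 for 1785 genes and at least 2-fold from WT MEF 2 for 3682 genes.

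**Figure D1:**
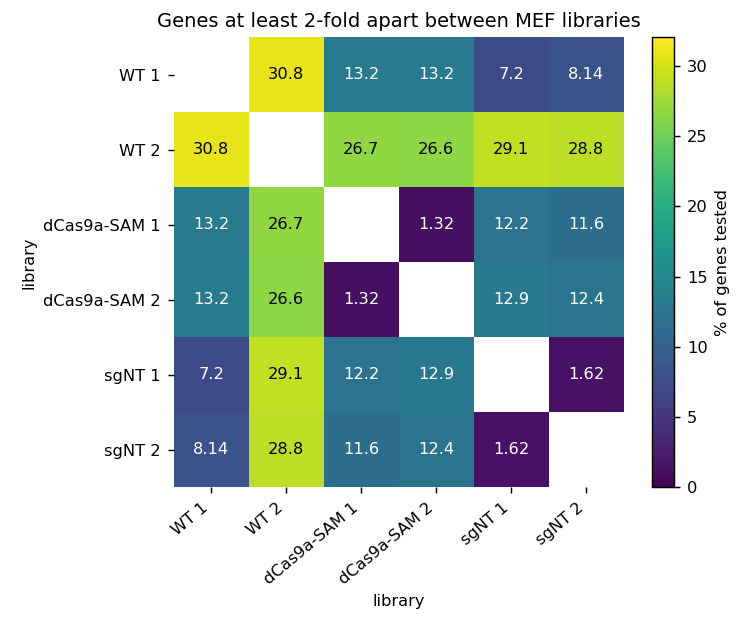
Share of the 13911 tested genes, in percent, that are at least 2-fold apart between each pair of 6 MEF libraries (WT, dCas9a-SAM without a guide, dCas9a-SAM with sgNT). WT 2 is 26.6% or more from every other library, whereas the libraries within the dCas9a-SAM pair and within the sgNT pair are 1.32% and 1.62% apart.

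No gene passed the test of dCas9a-SAM against WT with both WT libraries (0 of 13911, 0% called, limma, adjusted p under 0.05). The smallest adjusted p was 0.616, and 1035 genes (7.44%) had an unadjusted p under 0.05. limma-voom and edgeR's quasi-likelihood test likewise called 0 genes, with 1066 and 1008 at an unadjusted p under 0.05. DESeq2 called 185 genes (1.33%), 109 higher (0.784%) and 76 lower (0.546%) in dCas9a-SAM MEFs. Taking the spread from all 10 MEF libraries, limma called 723 (5.2%), 461 higher (3.31%) and 262 lower (1.88%). That fit pools the WT spread with those of the other groups, which were smaller for the dCas9a-SAM and sgNT pairs. It also counts libraries with a *Bcl2* guide (sgBcl-2) from the same labelled line as independent, so its calls do not rest on the WT spread alone. Against WT MEF 1 alone, 4749 genes (34.1%) were called, 2486 higher and 2263 lower, and against WT MEF 2 alone 8906 (64%), 4514 higher and 4392 lower. These 2 tests assume that a lone WT library varies as little as the dCas9a-SAM pair, so they compare that library and not the genotype.

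The groups did not overlap for 5739 genes (41.3%), of which 2885 (20.7%) were above both WT libraries in both dCas9a-SAM libraries and 2854 (20.5%) below both. The counts of list members above or below both WT libraries stand against these shares of 20.7% and 20.5%. Positions of this kind are read here after TMM scaling, whereas CPM values are printed as deposited. A gap of at least 2-fold between the groups was seen for 343 genes upwards (2.47%) and 161 downwards (1.16%). For 332 genes, the dCas9a-SAM mean was at least 2-fold above one WT library and at least 2-fold below the other. No gene with at least 1 CPM in both libraries of 1 group had 1 read or fewer in both libraries of the other (0 gained and 0 lost).

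The targeted locus came first. *Gt(ROSA)26Sor* (Entrez 14910, GRCm38 chr6:113067428-113077244) is a non-coding gene transcribed in most tissues. It measured 8.33 and 11.7 CPM in WT MEF 1 and 2, and 6.38 and 6.45 CPM in dCas9a-SAM MEF 1 and 2. Both dCas9a-SAM libraries lay below both WT libraries, with a log2 difference of -0.57 ± 0.27 (SE; adjusted p = 0.75, limma), while the sgNT libraries had 7.80 and 6.99 CPM. The gene overlaps *Thumpd3*, and as strand-specific counting is not stated, reads of the overlap cannot be assigned with certainty. The table has no row for the cassette, so that its own RNA could not be read.

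Of the 27 other tested genes within 1 Mb of *Gt(ROSA)26Sor*, 6 were above both WT libraries (20.7% of all genes), 5 below both (20.5%) and 16 overlapped, with a median log2 difference of -0.02. Their differences ran from -0.59 for *Creld1* to 1.40 for *Fancd2*, a gene of DNA crosslink repair, which had 3.98 and 2.17 CPM in WT and 8.27 and 7.18 CPM in dCas9a-SAM MEFs. *Setd5*, which lies 18 bp from *Gt(ROSA)26Sor*, had 121 and 195 CPM in WT and 132 and 127 CPM in dCas9a-SAM MEFs. *Rad18*, a DNA damage tolerance gene, measured 12.4 and 6.08 CPM in WT against 18.8 and 19.4 CPM.

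The mouse genes that correspond to the activation domains of the cassette were not higher. *Rela*, which encodes p65, measured 110.1 and 177 CPM in WT and 109 and 105 CPM in dCas9a-SAM MEFs, and *Hsf1* 54.9 and 66.8 CPM against 54.6 and 56.6 CPM. In both cases the dCas9a-SAM libraries lay close to WT MEF 1 and under WT MEF 2. Of 20 heat shock factor targets, 3 were above both WT libraries (20.7% of all genes) and 7 below both (20.5%), and their median log2 difference was -0.18, all tested genes having a median of -0.00. The inducible chaperone *Hspa1b* had 123 and 438 CPM in WT and 56.2 and 61.3 CPM in dCas9a-SAM MEFs, so it was lower than in either WT library, and its copy *Hspa1a* was 22.7 and 130.1 CPM against 10.2 and 11.3 CPM. These copies share much of their sequence and their reads may be split between them. The constitutive chaperone *Hspa8* (1587 and 4042 CPM in WT, 1693 and 1794 CPM in dCas9a-SAM) and *Hsp90ab1* (1798 and 3636 CPM, then 2098 and 2107 CPM) lay between the WT libraries.

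Of 18 NF-κB subunits and feedback genes, 4 were above both WT libraries and 6 below both, with medians of -0.02 against WT MEF 1 and -0.23 against WT MEF 2. The adhesion molecule *Vcam1* was below both WT libraries, at 72.2 and 61.2 CPM against 269 and 114 CPM. *Nfkb1* (69.2 and 45.7 CPM in WT, 74.9 and 66.6 CPM in dCas9a-SAM) and *Nfkbia*, the inhibitor that NF-κB induces (35.7 and 52.96 CPM, then 47.3 and 47.1 CPM), overlapped. *Tnfaip3*, the A20 feedback inhibitor, was above both, at 48.7 and 43.5 CPM against 25.4 and 28.9 CPM. DESeq2 called 0 genes of the NF-κB list and 2 of the heat shock list, *Hspa1a* and *Hspa1b*, both lower (adjusted p = 0.0244 and 0.0275), where 0.546% of all genes were called lower.

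Genes whose groups stood apart with little spread inside each group describe the dCas9a-SAM libraries without a guide. The requirement was that the 2 WT libraries, and the 2 dCas9a-SAM libraries, were each within 2-fold of one another, and that the higher group reached 5 CPM. Among 8054 such genes, 1848 were above both WT libraries and 1975 below both. The 12 with the largest difference in each direction are described, and as they were chosen for their size, their differences are a description.

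The 12 genes highest in dCas9a-SAM MEFs included secreted signals, a transcription factor and matrix proteins. *Wnt10b* (Entrez 22410, GRCm38 chr15:98770712-98778206), a ligand of the canonical WNT pathway, measured 2.49 and 1.52 CPM in WT and 25.6 and 24.6 CPM in dCas9a-SAM MEFs, a log2 difference of 3.66 ± 0.40 (SE). Its relative *Wnt10a* was at 1.17 and 0.76 CPM in WT and 9.09 and 7.44 CPM in dCas9a-SAM MEFs. Both ligands were thus low in WT cells and present in both dCas9a-SAM libraries. *Sim2*, a bHLH-PAS transcription factor, had 5.89 and 6.19 CPM in WT and 43.2 and 41.2 CPM in dCas9a-SAM MEFs (2.83 ± 0.21), the smallest error of the 12. *Angptl7*, a secreted angiopoietin-like protein, showed the largest difference at 3.91 ± 0.51, from 0.42 and 0.95 CPM to 13.9 and 8.26 CPM. *Sema7a*, a membrane-anchored semaphorin, was at 3.18 and 1.90 CPM in WT and 20.6 and 20.7 CPM in dCas9a-SAM MEFs. The dCas9a-SAM libraries were within 2-fold of each other for each of these genes, which the choice required.

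The remaining 7 were *Pcsk2*, a prohormone convertase, *Klk10*, a kallikrein-related protease, *Smoc1*, a secreted modulator of BMP signalling, the TNF family cytokine gene *Tnfsf15*, *Fndc1*, the myelin lipid-binding protein gene *Pmp2* and *Wscd2*. Their log2 differences lay between 2.38 and 3.19. The first gene outside the 12 was *Ndnf*, at 2.37. The sgNT libraries, which carry the same cassette, were below both dCas9a-SAM libraries for 12 of these 12 genes, as they were for 36.5% of all genes, and the choice of genes high in dCas9a-SAM MEFs favours this position. *Wnt10b*, for example, had 2.05 and 2.28 CPM and *Sim2* 3.56 and 4.18 CPM with sgNT, while for 5 of the 12, *Sema7a*, *Smoc1*, *Tnfsf15*, *Fndc1* and *Wscd2*, both sgNT libraries were also above both WT libraries in CPM, as with *Fndc1* at 15.9 and 14.0 CPM.

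The 12 genes lowest in dCas9a-SAM MEFs were led by a potassium channel subunit and a matrix proteoglycan. *Kcne4*, an accessory subunit of potassium channels, measured 17.8 and 21.7 CPM in WT and 2.28 and 3.10 CPM in dCas9a-SAM MEFs (-2.80 ± 0.30). *Dcn* (Entrez 13179, GRCm38 chr10:97479500-97518163), which encodes decorin, a proteoglycan that binds collagen fibrils and growth factors, had 86.8 and 87.3 CPM in WT and 12.7 and 14.8 CPM in dCas9a-SAM MEFs (-2.61 ± 0.20). The WT libraries, so far apart elsewhere, were nearly equal for *Dcn*. *Shox2*, a homeobox gene of the proximal limb, was at 12.4 and 10.2 CPM in WT and 2.76 and 2.37 CPM in dCas9a-SAM MEFs. *F2rl1*, the protease-activated receptor PAR2, had 40.5 and 47.4 CPM in WT and 10.6 and 10.1 CPM in dCas9a-SAM MEFs, and *Pth1r*, the parathyroid hormone receptor, 10.2 and 7.67 CPM against 2.11 and 2.15 CPM. Another G protein-coupled receptor gene beside these, *Gpr35*, was at 16.2 and 23.1 CPM against 3.19 and 3.31 CPM.

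The other members were *Amz1*, a metalloprotease gene, the synaptic scaffold gene *Dlg2*, *Lrrn4cl*, *Arhgap20*, a GTPase-activating protein gene, the alcohol dehydrogenase *Adh1* and the aminopeptidase *Lvrn*, with log2 differences between -2.48 and -2.19. The next gene was *Xdh*, at an absolute difference of 1.96. Here, too, both sgNT libraries lay above both dCas9a-SAM libraries for 12 of 12 genes (37.1% of all genes), a position that the choice again favours: *Dcn* had 129 and 79.7 CPM and *Kcne4* 28.9 and 19.7 CPM with sgNT. The gap for *F2rl1* was small, as sgNT had 13.4 and 14.5 CPM. limma gave an adjusted p of 0.616 for all 24 genes, whereas DESeq2 called 24 of 24 (1.33% of all genes) and limma with all 10 MEF libraries 23 (5.2% of all genes; *Pcsk2* had an adjusted p of 0.0893). As the genes were chosen for large and tight differences, these calls are a description. Which differences follow the cassette and which follow the individual line cannot be told apart with 2 libraries in each group, labelled as 2 lines.

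**Figure D2:**
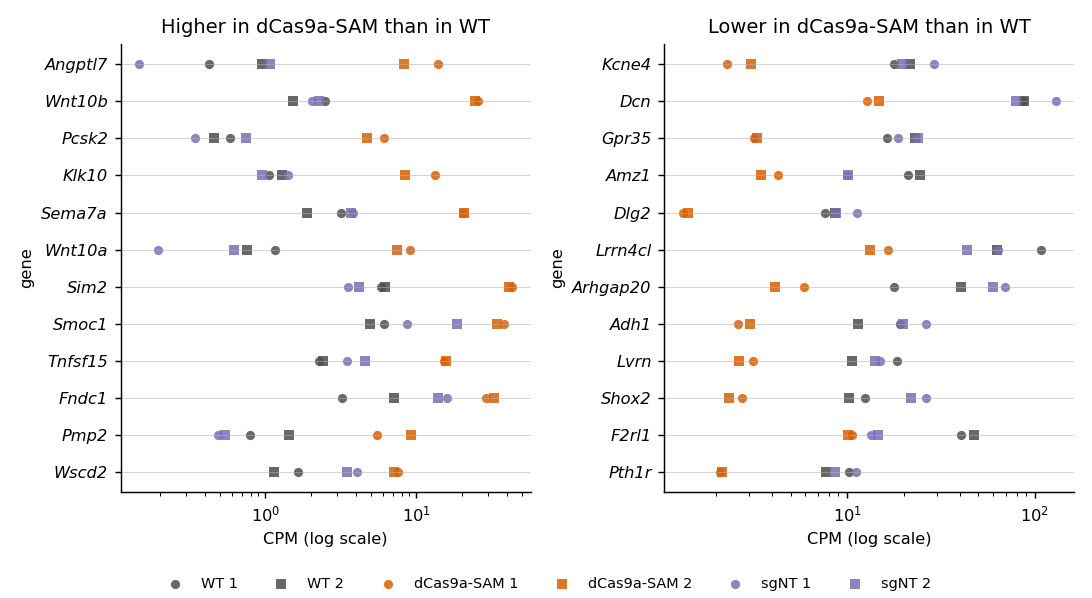
CPM on a log scale of the 12 genes with the largest difference in each direction, with 1 point for each of the 2 WT, 2 dCas9a-SAM and 2 sgNT libraries (circles, library 1; squares, library 2). The dCas9a-SAM points stand apart from the WT points by choice of the genes, and for all 24 genes the sgNT points lie on the WT side of them.

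Mitotic genes were higher in dCas9a-SAM MEFs than in either WT library. These genes encode the kinases, kinesins and checkpoint proteins of cell division and are transcribed together late in the cycle. Many of their promoters hold the sequence TTTGAA, the cell cycle genes homology region read by the MuvB complexes, next to CCAAT boxes bound by NF-Y. Of 24 mitotic genes, 20 matched the RefSeq promoter table, and within 250 bases before and 50 after a start site, TTTGAA was found on either strand in 15 (75%), against 20.2% of all 27025 genes. CCAAT was found in 19 (95%), against 41.1%. Shown are the 150 bases before the start site of 3 members that hold both motifs there, in windows outside any annotated gene body (RefSeq, GRCm38.p6), with TTTGAA and CCAAT, or their reverse complements TTCAAA and ATTGG, in capitals. *Cdk1*, the mitotic kinase, lies on the minus strand (chr10:69352913-69353062), *Cdc20*, an activator of the anaphase-promoting complex, on the minus strand (chr4:118437344-118437493), and *Ube2c*, its ubiquitin-conjugating enzyme, on the plus strand (chr2:164769779-164769928).
Cdk1: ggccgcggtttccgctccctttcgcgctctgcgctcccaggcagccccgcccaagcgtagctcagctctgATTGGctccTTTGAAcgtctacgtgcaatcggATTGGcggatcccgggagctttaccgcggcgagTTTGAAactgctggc
Cdc20: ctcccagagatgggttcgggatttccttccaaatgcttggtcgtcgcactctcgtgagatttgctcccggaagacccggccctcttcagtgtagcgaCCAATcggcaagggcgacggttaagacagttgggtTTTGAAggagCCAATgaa
Ube2c: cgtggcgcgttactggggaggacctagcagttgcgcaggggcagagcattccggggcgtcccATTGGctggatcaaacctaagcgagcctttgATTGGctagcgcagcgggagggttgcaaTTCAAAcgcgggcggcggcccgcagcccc

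All 24 mitotic genes tested were above both WT libraries in both dCas9a-SAM libraries, where 20.7% of all genes were. *Mki67*, the source of the Ki-67 proliferation antigen, measured 47.8 and 13.6 CPM in WT and 183 and 171 CPM in dCas9a-SAM MEFs (log2 difference 2.83 ± 0.72, SE), and *Top2a*, topoisomerase II alpha, 56.5 and 21.2 CPM against 153 and 153 CPM. *Cdk1* had 40.04 and 21.4 CPM in WT and 75.8 and 82.8 CPM in dCas9a-SAM MEFs, and *Cdc20* 32.8 and 9.42 CPM against 73.7 and 75.7 CPM. The order was the same each time, with WT MEF 2 lowest, WT MEF 1 next and the dCas9a-SAM pair highest and close together. *Nek2*, a centrosome kinase, was the exception in that WT MEF 1 and 2 were nearly equal, at 10.7 and 11.2 CPM, and the dCas9a-SAM libraries had 26.6 and 26.8 CPM. The median log2 difference of the 24 genes was 2.07, made up of 1.23 against WT MEF 1 and 3.01 against WT MEF 2. The summed level was 562 and 213.2 CPM in WT, 1446 and 1405 CPM in dCas9a-SAM, and 737 and 736 CPM in sgNT MEFs, and both dCas9a-SAM libraries were above both sgNT libraries for 24 of 24 genes (36.5% of all genes).

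limma called 0 mitotic genes with both WT libraries (lowest adjusted p = 0.616), DESeq2 called 5 higher and limma with all 10 MEF libraries 19 higher, where 0.784% and 3.31% of all genes were called higher. Against WT MEF 1 alone, 24 of 24 were called higher (17.9% of all genes), and against WT MEF 2 alone 24 (32.4%). As each gene was above both WT libraries, its direction against either one was given, and these calls compare single WT libraries and not the genotype.

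DNA replication genes followed with smaller differences. Of 25 tested, 20 were above both WT libraries (20.7% of all genes) and 0 below both (20.5%), and the median log2 difference was 1.00, being 0.61 against WT MEF 1 and 1.38 against WT MEF 2. *Mcm6*, a subunit of the replicative helicase, had 42.6 and 43.4 CPM in WT and 82.4 and 85.02 CPM in dCas9a-SAM MEFs, and *Rrm1*, the large subunit of ribonucleotide reductase, 114 and 68.2 CPM against 169 and 175 CPM. *Rrm2*, its regulated subunit, showed how far WT MEF 2 lay apart, with 109 and 11.4 CPM in WT and 140.4 and 157 CPM in dCas9a-SAM MEFs. *Pcna* (63.6 and 92.3 CPM in WT, 89.3 and 91.8 CPM in dCas9a-SAM) was above both only after scaling. DESeq2 called 0 of the 25 and limma with all 10 MEF libraries 8, all higher (3.31% of all genes).

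**Figure D3:**
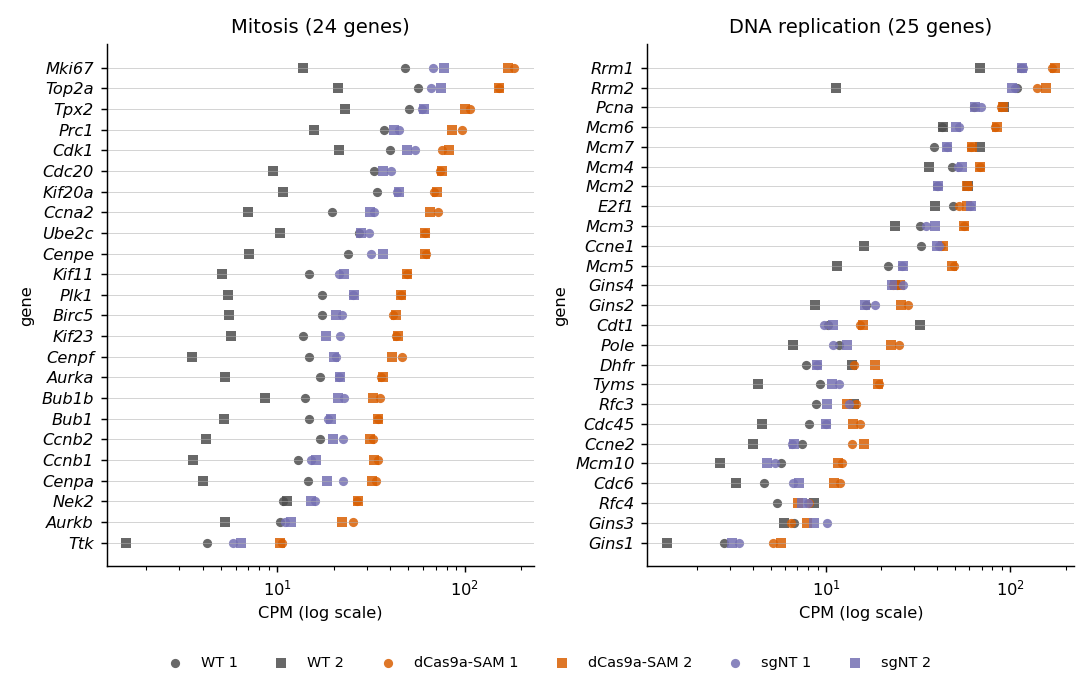
CPM on a log scale of 24 mitotic genes and 25 DNA replication genes in the 2 WT, 2 dCas9a-SAM and 2 sgNT MEF libraries (circles, library 1; squares, library 2), with genes ordered by their mean level. In the mitotic panel the dCas9a-SAM points lie right of all others for 24 of 24 genes.

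Inhibitors of division and p53 targets were mostly lower in dCas9a-SAM MEFs than in WT MEF 1, but not than in WT MEF 2. *Cdkn2a*, which encodes p16 and ARF, measured 282 CPM in WT MEF 1, 4.56 CPM in WT MEF 2, and 117 and 123 CPM in dCas9a-SAM MEFs, so the WT library with the fewest mitotic transcripts also had the least *Cdkn2a*. *Cdkn1a*, the p21 gene, was at 831 and 536 CPM in WT and 487 and 499 CPM in dCas9a-SAM MEFs. Of 24 p53 targets and Cdkn2 genes, 4 were above both WT libraries and 4 below both, with medians of -0.33 against WT MEF 1 and 0.28 against WT MEF 2. *Mdm2*, the p53 ubiquitin ligase, was below both, at 239 and 248 CPM against 340 and 406 CPM. Among 13 tested BCL-2 family genes, 3 were above both WT libraries and 2 below both, the *Noxa* gene *Pmaip1* having 69.6 and 70.4 CPM in WT and 153 and 171 CPM in dCas9a-SAM MEFs (adjusted p = 0.0157, DESeq2).

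Markers of other cell types set WT MEF 2 apart. Macrophage markers summed to 9.92 CPM in WT MEF 1, 293 CPM in WT MEF 2, and 11.9 and 10.1 CPM in dCas9a-SAM MEFs. *Lyz2*, lysozyme, was at 3.66, 104, 1.51 and 1.16 CPM in that order. Of 14 macrophage markers, 5 lacked a read in WT MEF 1, 0 in WT MEF 2, and 0 and 1 in dCas9a-SAM MEF 1 and 2. This count thus did not set WT MEF 2 apart from the dCas9a-SAM libraries. Skeletal muscle markers summed to 102 and 524 CPM in WT and 169 and 204 CPM in dCas9a-SAM MEFs, and epithelial markers to 34.5 and 297 CPM in WT and 65.8 and 89.8 CPM in dCas9a-SAM MEFs, though *Epcam* and *Cdh1* were under 1 CPM in every library. Endothelial markers summed to 12.8 and 75.8 CPM in WT and 19.3 and 22.4 CPM in dCas9a-SAM MEFs. The summed levels of these 4 lists in dCas9a-SAM MEFs were nearer to WT MEF 1, but sums rest on the most abundant genes. The median log2 difference over genes was smaller against WT MEF 2 for the epithelial list (2.72 against WT MEF 1 and -1.44 against WT MEF 2) and the endothelial list (1.42 and -1.23), and smaller against WT MEF 1 for the macrophage list (0.20 and -4.04) and the muscle list (1.81 and -4.19). Erythroid markers were near 0, at 0.95 CPM or less in sum, and 0 passed the filter on low counts. In bulk RNA, a larger number of cells of a type and more RNA in each cell cannot be told apart, and the part of these cell types in the other differences of WT MEF 2 was not tested.

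Cartilage markers had their highest sums in the dCas9a-SAM libraries without a guide. Glial markers summed to 13.5 CPM in WT MEF 1, 100.5 CPM in WT MEF 2, 84.4 and 88.5 CPM in dCas9a-SAM MEFs, and 15.2 and 13.6 CPM with sgNT. *Col2a1*, the collagen of cartilage, had 40.9 and 16.8 CPM in WT and 713 and 538 CPM in dCas9a-SAM MEFs, a log2 difference of 4.6004 ± 0.56 (SE), and 88.1 and 118 CPM with sgNT. *Col11a1* was at 82.5 and 39.5 CPM in WT and 291 and 228 CPM in dCas9a-SAM MEFs. However, *Sox9*, the transcription factor that drives both genes in chondrocytes, was lower (45.9 and 40.7 CPM in WT, 30.0 and 26.02 CPM in dCas9a-SAM), and *Matn1* was at 0.0430 CPM or less in every library. Of 6 cartilage markers tested, 4 were above both WT libraries and 1 below both. *Sox10*, the neural crest and glial factor, had 1.49 CPM in WT MEF 1, 37.8 CPM in WT MEF 2 and 39.5 and 48.3 CPM in dCas9a-SAM MEFs, and *Foxd3* 0.58, 18.5, 14.0 and 12.2 CPM. In both genes the dCas9a-SAM libraries were near WT MEF 2, while the sgNT libraries, with 1.22 and 0.66 CPM of *Sox10* and 0.44 and 0 CPM of *Foxd3*, were below WT MEF 1. Of neural markers, *Nes*, the intermediate filament nestin, was above both WT libraries, at 433 and 417 CPM against 128 and 245 CPM. Of adipocyte markers, *Lpl*, lipoprotein lipase, was below both, at 13.4 and 14.8 CPM against 49.4 and 52.0 CPM.

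**Figure D4:**
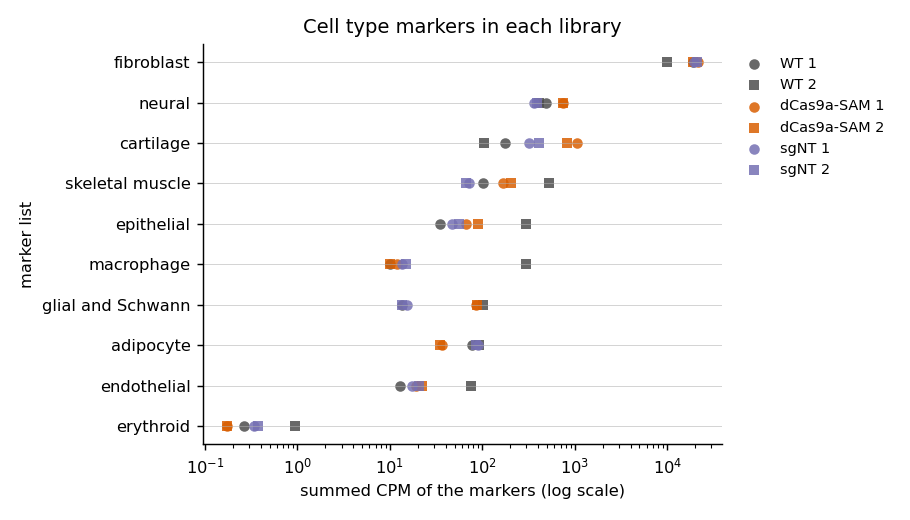
Summed CPM on a log scale of 10 lists of cell type markers in the 2 WT, 2 dCas9a-SAM and 2 sgNT MEF libraries (circles, library 1; squares, library 2). WT 2 has the highest macrophage (293 CPM), muscle, epithelial and endothelial sums and the lowest fibroblast sum, while the dCas9a-SAM libraries have the highest cartilage sums (1062 and 818 CPM).

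The genes that differ most between the WT libraries were taken next. The 12 genes highest in WT MEF 2 relative to WT MEF 1, with log2 differences from 5.93 to 9.73, were contractile and cardiac genes (*Myh6*, *Myh7*, *Nppa*, *Actc1*, *Myl1*, *Myh3*, *Ttn*), the scavenger receptor *Cd36*, the tight junction gene *Cldn4*, *Fgf5*, *Foxq1* and *Igf2*. *Nppa*, the atrial natriuretic peptide, had 0.212 CPM in WT MEF 1, 134 CPM in WT MEF 2 and 0.948 and 1.63 CPM in dCas9a-SAM MEFs. *Igf2*, an embryonic growth factor, had 42.7 CPM in WT MEF 1, 2983 CPM in WT MEF 2 and 412 and 255 CPM in dCas9a-SAM MEFs. The dCas9a-SAM libraries lay between the WT libraries for all 12, a position that the choice of genes with wide WT gaps favours.

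The 12 genes lowest in WT MEF 2 relative to WT MEF 1, from -5.13 to -7.70, were *Prelp*, *Sprr2k*, *Gm2115*, *Lgr5*, *Serpinb6c*, *Ccn5*, *Prl2c2*, *Prl2c3*, *Cdkn2a*, *Rspo2*, *Thy1* and *P4ha3*. *Thy1*, a fibroblast surface marker, had 1577 CPM in WT MEF 1, 49.96 CPM in WT MEF 2 and 186 and 173 CPM in dCas9a-SAM MEFs. *Lgr5*, a receptor for R-spondins, was at 40.4 and 0.380 CPM in WT and 1.34 and 0.989 CPM in dCas9a-SAM MEFs, and its ligand gene *Rspo2* at 25.1 and 0.456 CPM in WT and 33.8 and 21.2 CPM in dCas9a-SAM MEFs. The receptor thus resembled WT MEF 2 and the ligand WT MEF 1. The proliferin genes *Prl2c2* and *Prl2c3* are near-identical, and their separate values are uncertain.

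Genes of the unfolded protein and integrated stress responses were mostly high in WT MEF 2 and nearer to WT MEF 1 in dCas9a-SAM MEFs. Many of them encode chaperones and regulators that are induced when folding in the endoplasmic reticulum fails, some through a promoter element, the ER stress response element (ERSE), whose outer parts are a CCAAT box bound by NF-Y and a site of the factor ATF6. The ERSE was found on either strand in the promoters of *Calr*, *Creld2*, *Hsp90b1* and *Hspa5*, 4 of the 20 genes of the list (20%), against 0.137% of all genes. Shown are the 150 bases before the start sites of the 3 that hold it there (RefSeq, GRCm38.p6), with the outer parts of the ERSE in capitals, the CCAAT box and the ATF6 site, on either strand. They are *Hsp90b1* on the minus strand (chr10:86705445-86705594), *Hspa5* on the plus strand (chr2:34771940-34772089) and *Creld2* on the plus strand (chr15:88819496-88819645).
Hsp90b1: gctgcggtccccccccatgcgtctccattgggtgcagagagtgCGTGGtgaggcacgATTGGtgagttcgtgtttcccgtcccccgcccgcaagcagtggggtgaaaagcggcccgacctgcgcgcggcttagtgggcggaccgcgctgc
Hspa5: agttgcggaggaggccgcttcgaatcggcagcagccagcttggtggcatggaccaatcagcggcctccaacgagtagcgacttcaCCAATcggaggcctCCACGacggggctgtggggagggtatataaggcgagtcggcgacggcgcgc
Creld2: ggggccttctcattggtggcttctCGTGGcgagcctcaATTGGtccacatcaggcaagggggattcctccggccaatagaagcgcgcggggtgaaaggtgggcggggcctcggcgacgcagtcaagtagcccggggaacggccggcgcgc

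*Hspa5*, the chaperone BiP, had 779 and 6279.5 CPM in WT and 1048 and 981 CPM in dCas9a-SAM MEFs. *Hsp90b1* was at 1133 and 6609.6 CPM in WT and 1415 and 1374 CPM in dCas9a-SAM MEFs, and *Creld2* at 49.6 and 249.1 CPM against 57.7 and 53.2 CPM. The dCas9a-SAM values lay just above WT MEF 1 and far below WT MEF 2. Of the 20 genes, 2 were above both WT libraries and 4 below both, 6 were called higher (17.9% of all genes) and 1 lower (16.3%) against WT MEF 1 alone, and the median log2 difference was 0.12 against WT MEF 1 and -1.79 against WT MEF 2. The antioxidant targets of NRF2 shared the high level of WT MEF 2, yet were also lower in dCas9a-SAM MEFs than in WT MEF 1: 13 of 18 were below both WT libraries (20.5% of all genes), with medians of -0.54 and -1.03. *Hmox1*, heme oxygenase 1, measured 330.1 and 2749 CPM in WT and 183 and 192 CPM in dCas9a-SAM MEFs, and *Srxn1*, sulfiredoxin, 89.3 and 558 CPM against 61.4 and 59.9 CPM. DESeq2 called 3 of the 18, all lower (0.546% of all genes).

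Cholesterol synthesis and glycolysis separated the WT libraries in opposite directions. The cholesterol genes, which SREBP2 controls, were lower in WT MEF 2 than in WT MEF 1 for 20 of 20 genes, and 19 by at least 2-fold. *Hmgcs1* had 332 and 66.9 CPM in WT and 333 and 297 CPM in dCas9a-SAM MEFs, and *Idi1* 242 and 16.3 CPM against 198 and 175 CPM. The groups overlapped for all 20, with medians of -0.35 against WT MEF 1 and 1.93 against WT MEF 2. Of 25 glycolysis and hypoxia genes, 11 were below both WT libraries (20.5% of all genes) and 0 above both (20.7%), with a median of -0.02 against WT MEF 1 and -0.47 against WT MEF 2. The glucose transporter *Slc2a1* had 177 and 1162 CPM in WT and 198 and 194 CPM in dCas9a-SAM MEFs, and *Aldoa*, aldolase A, 1581 and 3547 CPM against 1477 and 1557 CPM.

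Matrix genes mostly followed WT MEF 1. *Col1a1*, the main chain of type I collagen, had 3682 and 352 CPM in WT and 5134 and 4341 CPM in dCas9a-SAM MEFs, and *Col1a2* 2573 and 445 CPM against 2551 and 2228 CPM. Of 23 collagen genes, 7 were above both WT libraries and 0 below both, with a median of -0.00 against WT MEF 1 and 1.81 against WT MEF 2. *Col5a2*, a regulator of fibril diameter, was above both, at 2049 and 2169 CPM against 1152 and 553 CPM. Of 24 proteoglycans and matricellular genes, 2 were above both WT libraries and 6 below both, and the medians had opposite signs, -0.76 against WT MEF 1 and 1.19 against WT MEF 2. *Postn*, periostin, was below both, at 369 and 399 CPM against 521 and 863 CPM, and had 1735 and 1534 CPM with sgNT. Among 20 matrix proteases and inhibitors, 4 were above and 3 below, with the inhibitor *Timp2* at 4008 and 703 CPM in WT and 4059.6 and 3661 CPM in dCas9a-SAM MEFs.

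Contractile genes and targets of YAP and SRF, which respond to tension and the actin cytoskeleton, were above both WT libraries in 10 of 16 and 10 of 15 cases and below both in 0, where 20.7% of all genes were above both and 20.5% below both. *Acta2*, smooth muscle actin, measured 3056 and 928 CPM in WT and 3238 and 3974 CPM in dCas9a-SAM MEFs, while *Tpm1*, a tropomyosin, measured 1165 and 736 CPM against 1941 and 2248 CPM. The step from WT MEF 1 was small for *Acta2* and larger for *Tpm1*. *Ccn2*, a matricellular YAP target, had 1175 and 505 CPM in WT and 2052 and 1839 CPM in dCas9a-SAM MEFs, but *Thbs1* at 8912 and 894 CPM in WT and 8648 and 8009 CPM in dCas9a-SAM MEFs did not exceed WT MEF 1. The medians of the lists were 0.18 and 0.55 against WT MEF 1 and 1.17 and 1.28 against WT MEF 2.

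Hox genes, which record body position, are given by cluster, and no test compared the clusters. Beside the 20.7% of all genes above both WT libraries and the 20.5% below both, 7 of 11 Hox A genes were above both and 0 below both, and the median was 1.27 against WT MEF 1 and 1.24 against WT MEF 2, nearly the same for both. *Hoxa5* measured 25.9 and 14.7 CPM in WT and 53.4 and 56.3 CPM in dCas9a-SAM MEFs, and *Hoxa3* 11.4 and 4.48 CPM against 29.6 and 27.7 CPM. The more posterior *Hoxa9* (3.08 and 18.05 CPM in WT, 9.18 and 9.25 CPM in dCas9a-SAM) and *Hoxa10* (5.36 and 20.2 CPM, then 16.8 and 16.6 CPM) lay between the WT libraries. In Hox B, 5 of 8 were above both, with medians of 0.17 against WT MEF 1 and 1.20 against WT MEF 2, among them *Hoxb9* at 141 and 137 CPM against 80.0 and 54.9 CPM. Hox C had 2 above and 1 below of 9 and medians of -0.48 and 0.80, with *Hoxc8* at 114 and 5.24 CPM in WT and 43.0 and 39.4 CPM in dCas9a-SAM MEFs. Hox D had 1 above and 3 below of 8 and medians of 1.67 and -0.49, the one above being *Hoxd13*, the most distal limb and genital member, at 13.8 and 15.7 CPM against 2.07 and 8.59 CPM. limma with all 10 MEF libraries called 4 Hox A genes and 1 Hox B gene higher (3.31% of all genes), and DESeq2 called 0 Hox genes (0.784% of all genes higher).

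Among 48 other mesenchymal position factors, 16 were above both WT libraries and 10 below both. *Twist2* was below both, at 56.2 and 56.5 CPM against 186 and 95.7 CPM, and *Tbx15* likewise, at 37.1 and 39.4 CPM against 122 and 51.9 CPM, whereas *Osr1* was above both, at 86.3 and 83.0 CPM against 41.9 and 31.5 CPM. *Foxc1*, named after its values were seen, had 11.8 and 20.3 CPM in WT and 66.6 and 62.7 CPM in dCas9a-SAM MEFs. Of 32 TGF-beta, BMP and WNT genes, 13 were above both (20.7% of all genes) and 1 below both (20.5%), with *Ltbp1*, which stores latent TGF-beta in the matrix, at 339 and 284 CPM against 135 and 70.7 CPM. Of 24 imprinted and IGF genes, 7 were above and 4 below. *Igfbp2*, an IGF-binding protein named after its values were seen, had 99.7 and 93.6 CPM in WT, 411 and 472 CPM in dCas9a-SAM MEFs, and 93.6 and 35.5 CPM with sgNT.

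Inflammatory and antiviral genes were mostly spread around WT. Of 19 cytokine and chemokine genes tested, 7 were above both WT libraries and 1 below both. *Cxcl12*, the stromal chemokine that holds leukocyte precursors in place, had 450 and 237 CPM in WT and 529 and 507 CPM in dCas9a-SAM MEFs. *Ccl2*, which attracts monocytes, was at 265 and 66.1 CPM in WT and 83.7 and 57.8 CPM in dCas9a-SAM MEFs, hence near WT MEF 2. Of 19 interferon-stimulated genes, 1 was above both and 4 below both, with medians of opposite sign, 0.17 against WT MEF 1 and -0.67 against WT MEF 2. *Ifit2* was level, at 33.5 and 33.7 CPM in WT and 34.6 and 34.6 CPM in dCas9a-SAM MEFs. DESeq2 called 0 genes of either list.

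**Figure D5:**
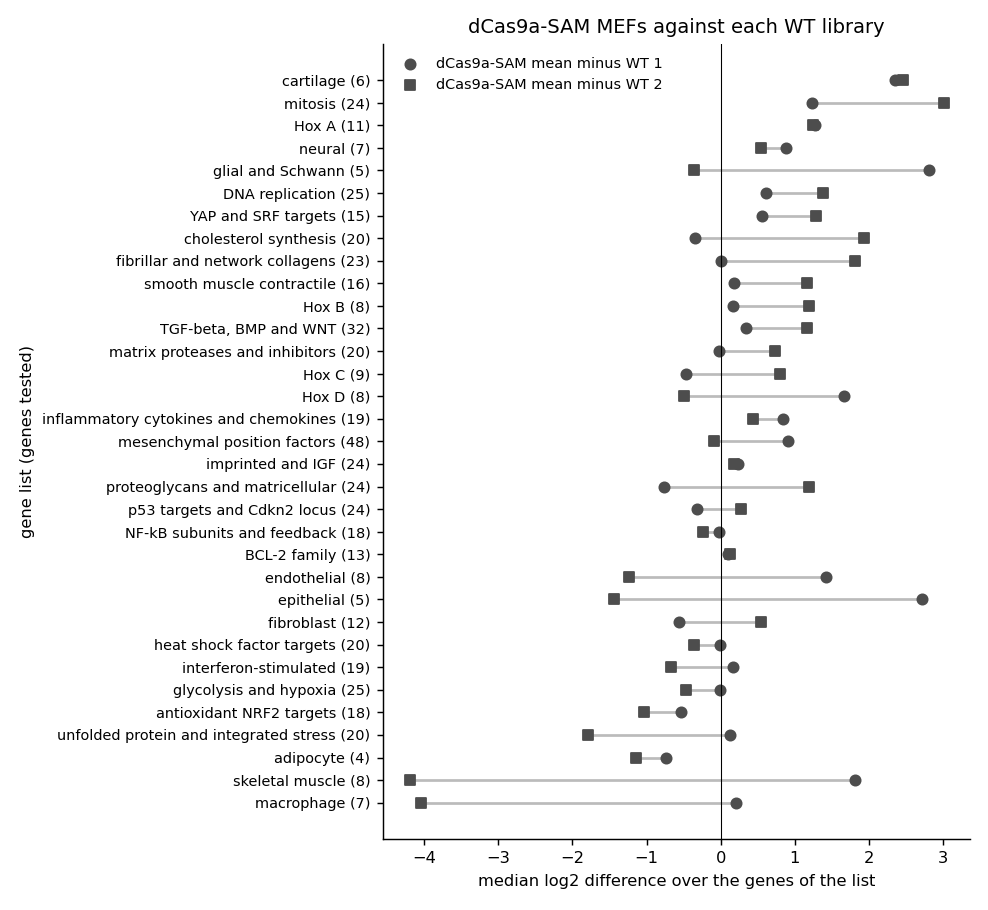
Median log2 difference between the dCas9a-SAM mean and WT 1 (circles) or WT 2 (squares) for 33 gene lists with a tested gene, with the number of genes tested in parentheses. Mitosis lies at 1.23 and 3.01, cartilage and Hox A lie to the right of 0 against both WT libraries, and macrophage, muscle and glial lists move from one side of 0 to the other with the WT library used.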

How the data were processed

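RNA was extracted with the Direct-zol kit and made into TruSeq RNA v2 libraries. The authors aligned reads with Rsubread to GRCm38 and deposited CPM for 25869 Entrez genes, with no log and no further factor. Each CPM column steps in whole reads (100% of values within 0.001), so reads were recovered. Symbols and positions came from the RefSeq table of GRCm38.p6, with 627 identifiers without a position left out, as were 1279 genes on X and Y.

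Genes were kept by filterByExpr, scaled by TMM and tested as log2(CPM + 0.1) with limma 3.58.1 (lmFit, eBayes with trend, Benjamini-Hochberg, threshold 0.05) in R 4.3.3. Fold changes on this scale understate those of low genes. edgeR 4.0.16 and DESeq2 1.42.0 used the recovered reads. The code was tested on simulated data with the same spread in both groups. The real groups differ in spread, so this does not show which changes the comparison with both WT libraries could call. Strand-specific counting is not given in the sources used here.

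Genes named are the 12 largest non-overlapping differences in each direction with both pairs within 2-fold and 5 CPM in the higher group, the 12 genes most apart between the WT libraries in each direction with 20 CPM in the higher, *Gt(ROSA)26Sor* and tested genes within 1 Mb, genes with 1 read or fewer in 1 group and 1 CPM in the other, and, from each of 34 lists, up to 6 of the most abundant or defining members. *Hspa1a*, *Hspa1b*, *Nfkbia*, *Tnfaip3*, *Nek2*, *Ube2c*, *Idi1*, *Slc2a1* and *Creld2* lie outside the 6 most abundant members of their lists and were chosen after their values were seen. *Lum*, *Pdgfra* and *Pdgfrb*, also outside the 6 most abundant of the fibroblast list, were named beyond that limit because they lay below both WT libraries. The members and lists were chosen with earlier results of these data known. No column of another series was used.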

Additional observations from a re-analysis of the deposited data

Results flagged for a closer look

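*Xist*, the RNA that silences one X chromosome in female cells, is on a chromosome left out of the comparison. It measured at most 0.345 CPM in the 4 libraries compared, but 566 CPM in the sgNT library of MEF line 2 and 536 and 436 CPM in the 2 sgBcl-2 libraries of line 2, whose Y-linked genes summed to 0.207 CPM or less. The dCas9a-SAM library without a guide that is labelled line 2 had 0.258 CPM of *Xist* and 220.0 CPM of Y-linked genes. The same line number thus stands for libraries with and without Y-linked RNA. All 4 libraries of the comparison with WT were Y-positive.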

How the results depend on the processing

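The count of 0 genes called with both WT libraries also held for limma-voom, edgeR, RLE or no scaling, pseudocounts of 0.5 and 1 CPM, no filter on low counts, genes on X and Y kept, and a minimum 2-fold change. It moved to 185 with DESeq2 and 723 with all 10 MEF libraries. Leaving out each replicate gave from 0 (either dCas9a-SAM library) to 8906 (without WT MEF 1), with 4749 without WT MEF 2. The replicate block by line number called 0 genes (smallest adjusted p = 0.164); the line differences of both groups correlated by 0.0549 across genes, so the numbers do not pair the samples. Against WT MEF 1 alone, the 4749 calls became 2260 with DESeq2, 1538 with a minimum 2-fold change, 0 without the filter, and 2382 higher against 1436 lower with no scaling factor. Against WT MEF 2 alone, the 8906 became 3538 with that minimum and 5406 without the filter, and the split of 4514 higher and 4392 lower became 3628 and 5110 with no scaling factor. With a pseudocount of 1 CPM, genes 2-fold apart between the dCas9a-SAM libraries went from 184 to 11, and those at least 2-fold below both WT libraries from 161 to 65. The cause was not tested. *Gt(ROSA)26Sor* ran from -0.72 (without WT MEF 1, adjusted p = 0.00544, limma) to -0.43 (without WT MEF 2) when replicates were left out. After seeing the data, 33 list medians were recomputed: 12 changed sign without WT MEF 2 (macrophage, endothelial, epithelial, skeletal muscle, interferon, collagens, proteoglycans, proteases, Hox C, cholesterol, unfolded protein and integrated stress and BCL-2 family), 6 without WT MEF 1 (fibroblast, glial, p53, Hox D, position factors and BCL-2 family) and 3 with DESeq2 (proteoglycans, from 0.18 to -0.34, Hox C, from 0.47 to -0.15, and Hox D, from 0.43 to -0.01). Genes under about 1 CPM rest on few reads, and 2 libraries in each group limit every comparison.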
